A study of Mus musculus with 16 samples.

Results

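The 9 genes described here are the pluripotency regulators Pou5f1 (the gene of Oct4), Sox2, Nanog and Sall4, the embryonic stem (ES) cell chromatin factors Utf1, Dppa2 and Dppa4, and the RNA-binding proteins Dppa5a and Lin28a. They were chosen by name, through every probe set whose annotation gives 1 of these symbols and no other gene. This gave 14 of the 45037 probe sets measured, and all 9 genes had at least 1. The study differentiated CCE mouse ES cells into embryoid bodies by withdrawing leukemia inhibitory factor (LIF), and sorted the dissociated cells by flow cytometry. Positive and negative cells were taken for the receptor VEGF-R2 at day 2.5, for the early blood marker CD41 at day 3.5, and for CD144 (VE-cadherin, the adhesion protein of endothelial junctions) at day 3.5 and at day 6.5. All 8 populations came from this 1 unmodified line, with no drug or genetic change, and each was measured on 2 arrays from separately conducted experiments. The labels name the CD41 sort by CD41 alone, but the study's methods describe its positive cells as VEGF-R2+ and its negative cells as VEGF-R2-. Where the study lists its sorted populations it names these by CD41 alone, and elsewhere it writes CD144+ cells as VEGF-R2+ as well. The populations are written below as VEGF-R2+ and VEGF-R2-, CD41+ and CD41-, and CD144+ and CD144- with the day. The cells were fixed in ethanol and acetic acid before sorting, and the ES cells had been kept on embryonic fibroblast feeders, from which they were separated before differentiation.

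Oct4, Sox2 and Nanog form the core of the transcription network that holds ES cells in the pluripotent state. Oct4 (a POU-domain factor) and Sox2 (an HMG-box factor) bind side by side on DNA, and many of their targets, Nanog among them, carry an octamer-like and a SOX-like motif next to each other. In the mouse embryo this network is active in the epiblast and is shut down as cells pass through the primitive streak into mesoderm, from which the VEGF-R2+ precursors of blood and vessels arise. Sall4 is a zinc finger factor that keeps Pou5f1 active in ES cells, and Lin28a blocks the maturation of let-7 microRNAs.

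RefSeq start-site windows (build GRCm38.p6) were at hand for 5 of the 9 genes, Pou5f1, Sox2, Nanog, Utf1 and Lin28a. The 250 bases before each start were searched on both strands for the octamer letters ATGCAAA, held by 4.12% of all 32851 windows of that length, and for the SOX letters CATTGT, held by 10.7%. The letter runs do not overlap each other. The following stretches are shown because they carry these letters, in capitals, before starts of genes whose signals are compared below.
Nanog, chr6:122707239-122707488, plus strand: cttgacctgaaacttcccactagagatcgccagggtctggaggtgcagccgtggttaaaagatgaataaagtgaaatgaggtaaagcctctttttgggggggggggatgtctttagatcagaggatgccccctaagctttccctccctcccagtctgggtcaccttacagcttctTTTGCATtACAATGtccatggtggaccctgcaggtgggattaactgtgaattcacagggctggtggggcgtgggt
Sox2, chr3:34649856-34649942, plus strand: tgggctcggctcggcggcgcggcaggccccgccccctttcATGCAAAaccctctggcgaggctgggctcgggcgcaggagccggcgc
Lin28a, chr4:134018895-134018924, minus strand: ggggggttgggtCATTGTcttttagaattt
The Nanog stretch ends at the base before the start and holds the octamer letters at 75 to 69 bases and the SOX letters at 67 to 62 bases before it, both on the opposite strand and 1 base apart. That arrangement was found in 2 of the 32851 windows, and both are windows of Nanog. Sox2 held the octamer letters at 99 to 93 bases before its start. Lin28a held the SOX letters at 96 to 91 bases before a start that lies inside the gene, so that this stretch is within the gene. The Utf1 window and the window before the outermost Pou5f1 start held neither run, while a second Pou5f1 start, inside the gene, had the SOX letters at 158 to 153 bases before it. A run of letters is a description of the sequence and does not show that a factor binds there.

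Signals are the linear array values as deposited, scaled to the same trimmed mean on every array, and their median over all values was 85.8. Fold changes are differences of log2(signal + 6) from a single limma fit over all 16 arrays, given with their standard error (SE), and p-values are adjusted over all 45037 probe sets, with a call at an adjusted p under 0.05. Signals of different probe sets are not on a common scale, so that levels are compared between populations and not between genes. In bulk RNA from a sort, fewer cells carrying a transcript and less of it per cell cannot be told apart. The transcripts of the sorting markers followed their sorts. Kdr (VEGF-R2) had signals of 5475 to 6297 in VEGF-R2+ cells, against 2077 to 2088 in VEGF-R2- cells. Itga2b (CD41) had 5299 to 7523 in CD41+ cells, against 195 to 227 in CD41- cells. Cdh5 (CD144) had 1863 to 2085 in CD144+ cells and 20 to 38 in CD144- cells at day 3.5, and 2219 to 3166 in CD144+ cells and 31 to 37 in CD144- cells at day 6.5. The hybridization control transcripts had geometric means of 6481 to 11175 on the 8 arrays of positive cells, against 2134 to 3022 on the 8 arrays of negative cells. Duplicate arrays correlated at a Spearman coefficient of 0.872 to 0.895 in positive populations, against 0.945 to 0.955 in negative populations. The part of these technical differences in the comparisons below was not tested.

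**Figure D1:**
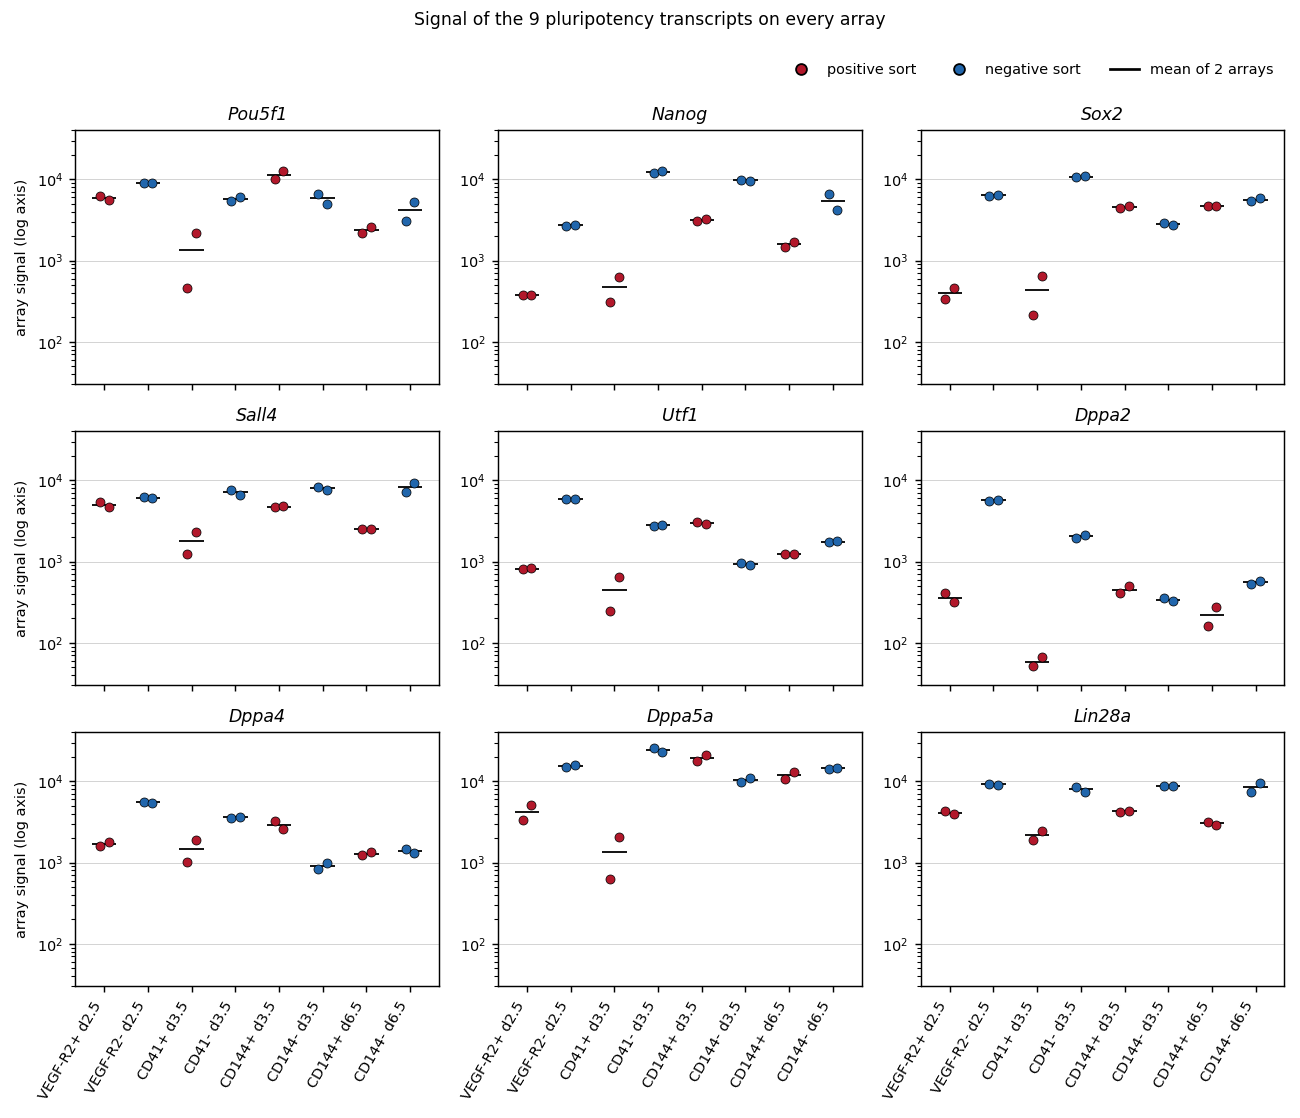
Array signal (log axis) of the 9 genes in the 8 sorted populations, 2 arrays each (points) with their mean (bar), positive populations in red to the left of their negative counterparts in blue. The CD41+ mean at day 3.5 was the lowest for 6 genes, while Pou5f1 was highest in CD144+ cells at day 3.5, between 10193 and 12561.

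Apart from Dppa2 in CD41+ cells, the 9 transcripts lay above the median of all signals in every population, and the CD41+ cells had the lowest mean of the 8 populations for 6 of them (Pou5f1, Sall4, Utf1, Dppa2, Dppa5a and Lin28a). Nanog and Sox2 were lowest in VEGF-R2+ cells, whose arrays overlapped those of CD41+ cells, and Dppa4 was lowest in CD144- cells at day 3.5. The highest population was CD41- for Nanog, Sox2 and Dppa5a, VEGF-R2- for Utf1, Dppa2, Dppa4 and Lin28a, CD144- at day 6.5 for Sall4, and CD144+ at day 3.5 for Pou5f1. The highest population mean exceeded the lowest 96.4-fold for Dppa2, 32.7-fold for Nanog, 27.1-fold for Sox2, 18.1-fold for Dppa5a and 13.3-fold for Utf1. The ratio was smaller for Pou5f1 (8.54), Dppa4 (6.02), Sall4 (4.64) and Lin28a, the lowest of the 9.

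Pou5f1 (17:35506032-35510777 in GRCm38.p6) had signals of 6299 and 5498 in VEGF-R2+ cells, against 8912 and 8896 in VEGF-R2- cells. In CD41+ cells it had 464 and 2200.1, against 5403 and 6014 in CD41- cells. In CD144+ cells at day 3.5 it had 10193 and 12561, against 6675 and 4996 in CD144- cells. These CD144+ arrays were the highest of all 16, and positive and negative arrays did not overlap in these sorts. At day 6.5 Pou5f1 had 2191 and 2557 in CD144+ cells, against 3075 and 5219 in CD144- cells. In the fit over all 16 arrays only the CD41 sort passed the test, with Pou5f1 5.60-fold lower in CD41+ cells (log2 fold change -2.49, SE 0.44, adjusted p = 0.000319). The log2 fold change was -0.60 in the VEGF-R2 sort (95% confidence interval -1.52 to 0.33, adjusted p = 0.358), 0.97 in the CD144 sort at day 3.5 (0.05 to 1.89, adjusted p = 0.135) and -0.76 in the CD144 sort at day 6.5 (-1.68 to 0.16, adjusted p = 0.260). The limma fits on only the populations compared did call Pou5f1 in the VEGF-R2 sort (adjusted p = 0.00707) and in the CD144 sort at day 3.5 (adjusted p = 0.00818). Pou5f1 had the widest standard error of the 9 genes, and its CD41+ duplicates lay 2.23 apart on the log2 scale, the largest gap between duplicates in the set. Among positive populations Pou5f1 was 11.1-fold higher in CD144+ than in CD41+ cells at day 3.5 (log2 fold change 3.47, adjusted p = 5.08e-05), and 4.77-fold lower in CD144+ cells at day 6.5 than at day 3.5 (log2 fold change -2.25, adjusted p = 0.00580). The day 6.5 call was lost without CD144+ replicate 2 of day 3.5 or without replicate 1 of day 6.5 (adjusted p = 0.0663 and 0.0575).

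Sox2 (3:34649995-34652461) had signals of 335 and 461 in VEGF-R2+ cells, against 6226 and 6487 in VEGF-R2- cells, a 15.9-fold lower level (log2 fold change -3.99, SE 0.30, adjusted p = 1.39e-07). In CD41+ cells it had 217 and 643, against 10563 and 11005 in CD41- cells, 28.4-fold lower (log2 fold change -4.83, adjusted p = 4.56e-09). All 4 of these positive arrays lay between 217 and 643, below every other array for Sox2. In CD144+ cells Sox2 had 4491 and 4659.5 at day 3.5, against 2921 and 2736 in CD144- cells, a difference that did not pass the test (log2 fold change 0.69, 95% confidence interval 0.06 to 1.33, adjusted p = 0.121). At day 6.5 it had 4746 and 4694 in CD144+ cells, against 5375 and 5829.8 in CD144- cells (log2 fold change -0.25, -0.88 to 0.39, adjusted p = 0.638). The arrays did not overlap in either CD144 sort, and the fit on only the day 3.5 populations compared called the day 3.5 difference (adjusted p = 0.00475). In CD144+ cells Sox2 was 11.5-fold higher at day 3.5 and 11.8-fold higher at day 6.5 than in VEGF-R2+ cells (log2 fold changes 3.52 and 3.57, adjusted p = 2.52e-06 and 7.59e-07). Its level in CD144+ cells was nearly the same at both days, with a log2 fold change of 0.05 between day 6.5 and day 3.5 (-0.59 to 0.68).

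Nanog (6:122707489-122714633), a homeodomain factor that stabilises self-renewal, was lower in the positive cells of every sort. It had 375 and 374 in VEGF-R2+ cells, against 2671 and 2755 in VEGF-R2- cells, and 306 and 629 in CD41+ cells, against 11949 and 12573 in CD41- cells. It had 3103 and 3279 in CD144+ cells, against 9794 and 9577 in CD144- cells at day 3.5, and 1474 and 1693 in CD144+ cells, against 6584 and 4209.8 in CD144- cells at day 6.5. The groups did not overlap in any of the 4 sorts. Nanog was 7.14-fold lower in VEGF-R2+ cells (log2 fold change -2.84, SE 0.24, adjusted p = 4.68e-07), 27.5-fold lower in CD41+ cells (-4.78, adjusted p = 3.96e-10), 3.03-fold lower in CD144+ cells at day 3.5 (-1.60, adjusted p = 0.000162) and 3.32-fold lower in them at day 6.5 (-1.73, adjusted p = 7.53e-05). The later negative cells, sorted by CD41 or CD144, had more Nanog than VEGF-R2- cells. The level was 4.51-fold higher in CD41- cells (2.17, adjusted p = 5.29e-05), 3.56-fold in CD144- cells at day 3.5 (1.83, adjusted p = 0.000109) and 1.94-fold in CD144- cells at day 6.5 (0.96, adjusted p = 0.0180). The day 6.5 call was lost without either VEGF-R2- array or without CD144- replicate 1 of day 6.5 (adjusted p up to 0.197).

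Sall4 (2:168748332-168767201) had 5403 and 4672 in VEGF-R2+ cells, against 6165 and 6071 in VEGF-R2- cells, a difference that did not pass the test (log2 fold change -0.28, 95% confidence interval -0.73 to 0.16, adjusted p = 0.364). It had 1226 and 2333 in CD41+ cells, against 7634 and 6680.4 in CD41- cells, 4.21-fold lower (-2.07, SE 0.21, adjusted p = 1.08e-06). It had 4630.4 and 4768 in CD144+ cells, against 8211 and 7667 in CD144- cells at day 3.5 (1.69-fold lower, -0.76, adjusted p = 0.0165). Leaving out any 1 of those 4 arrays ended that call (adjusted p 0.0623 to 0.113). At day 6.5 Sall4 had 2544 and 2506 in CD144+ cells, against 7224 and 9305 in CD144- cells, 3.24-fold lower (-1.70, adjusted p = 2.39e-05). Among negative populations Sall4 kept within a range of means of 6118 to 8265, and none of the changes between negative populations passed the test.

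Lin28a (4:134003330-134019196) followed Sall4 most closely of the members, with a Pearson correlation of 0.94 over the 8 population means. It had 4288 and 3933 in VEGF-R2+ cells, against 9177 and 9127 in VEGF-R2- cells (2.23-fold lower, -1.16, SE 0.14, adjusted p = 2.17e-05). It had 1915 and 2444 in CD41+ cells, against 8412 and 7481 in CD41- cells (3.66-fold lower, -1.87, adjusted p = 5.33e-08). It had 4248 and 4329.6 in CD144+ cells, against 8870.1 and 8675 in CD144- cells at day 3.5 (2.04-fold lower, -1.03, adjusted p = 8.98e-05), and 3159.6 and 2923 in CD144+ cells, against 7318 and 9537 in CD144- cells at day 6.5 (2.75-fold lower, -1.46, adjusted p = 2.72e-06). By this probe set Lin28a was, with Nanog, called lower in the positive cells of all 4 sorts, and its arrays of all positive populations lay below those of all negative populations. The second Lin28a probe set, with a mean signal of 912, did not follow the first (correlation -0.0025). Its mean was higher in positive cells in the VEGF-R2 sort (1194 against 942) and in the CD144 sorts at day 3.5 (1091 against 842, arrays overlapping) and day 6.5 (913 against 516). In the CD41 sort it was lower (654 against 1140). With the mean over both probe sets Lin28a lost its calls in the VEGF-R2 sort and in both CD144 sorts.

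Utf1 (7:139943856-139945112), a chromatin factor of undifferentiated ES cells, changed sides between sorts. It had 806 and 826 in VEGF-R2+ cells, against 5970.0 and 5955 in VEGF-R2- cells (7.26-fold lower, -2.86, SE 0.26, adjusted p = 1.10e-06), and 249 and 648 in CD41+ cells, against 2774 and 2816 in CD41- cells (6.85-fold lower, -2.78, adjusted p = 5.55e-07). In the CD144 sort at day 3.5 it was on the other side, with 3111 and 2903 in CD144+ cells, against 959.8 and 915 in CD144- cells (3.19-fold higher, 1.67, adjusted p = 0.000239). At day 6.5 it had 1227 and 1241 in CD144+ cells, against 1764 and 1767 in CD144- cells, which did not pass the test (-0.51, 95% confidence interval -1.07 to 0.04, adjusted p = 0.201). Utf1 was also 2.43-fold lower in CD144+ cells at day 6.5 than at day 3.5 (-1.28, adjusted p = 0.00863), a call that leaving out any 1 of the 4 arrays ended (adjusted p 0.0504 to 0.0601).

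Dppa2 (16:48310274-48319513) and Dppa4 (16:48283735-48294292) encode SAP-domain proteins that work as a pair, and the genes lie 15981 bases apart. Both were highest in VEGF-R2- cells and lower in the negative populations of day 3.5 and day 6.5, except that Dppa4 in CD41- cells did not pass the test. Dppa2 had 405 and 316 in VEGF-R2+ cells, against 5637 and 5681 in VEGF-R2- cells (15.6-fold lower, -3.96, SE 0.23, adjusted p = 9.12e-09). It had 51.2 and 66.3 in CD41+ cells, below the median of all signals, against 1971 and 2107 in CD41- cells (31.8-fold lower, -4.99, adjusted p = 1.18e-10). Dppa4 differed less in these sorts, with 1576 and 1773 in VEGF-R2+ cells, against 5526 and 5454 in VEGF-R2- cells (3.28-fold lower, -1.71, SE 0.21, adjusted p = 1.81e-05), and 1010.3 and 1903 in CD41+ cells, against 3523 and 3669 in CD41- cells (2.59-fold lower, -1.37, adjusted p = 9.24e-05).

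In the CD144 sort at day 3.5 Dppa2 had 411 and 495 in CD144+ cells, against 353 and 329.7 in CD144- cells (0.40, 95% confidence interval -0.08 to 0.87, adjusted p = 0.247). Dppa4 had 3207 and 2594 in CD144+ cells, against 841 and 984 in CD144- cells, and was 3.16-fold higher in CD144+ cells (1.66, adjusted p = 3.58e-05). At day 6.5 the pair differed the other way, since Dppa2 had 163 and 275 in CD144+ cells, against 533 and 583 in CD144- cells (2.59-fold lower, -1.37, adjusted p = 0.000349), while Dppa4 had 1232 and 1351 in CD144+ cells, against 1487 and 1322 in CD144- cells (-0.12, -0.57 to 0.33, adjusted p = 0.759). In CD144- cells at day 3.5, set against VEGF-R2- cells, Dppa2 was 16.3-fold lower (-4.03, adjusted p = 3.39e-08) and Dppa4 was lower as well (-2.59, adjusted p = 1.05e-06). The correlation of their population means was 0.80, and that of Dppa2 with Utf1 was 0.90.

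Dppa5a (9:78367052-78368199), a KH-domain protein of the inner cell mass and ES cells, had 3377 and 5085 in VEGF-R2+ cells, against 14808 and 15946 in VEGF-R2- cells (3.70-fold lower, -1.89, SE 0.34, adjusted p = 0.000586). It had 625 and 2046 in CD41+ cells, against 25535 and 22789.9 in CD41- cells (21.2-fold lower, -4.41, adjusted p = 5.23e-08). It had 17894 and 21274 in CD144+ cells, against 9683 and 10852 in CD144- cells at day 3.5, arrays that did not overlap but did not pass the test (0.93, 95% confidence interval 0.21 to 1.65, adjusted p = 0.0663). The CD144+ level at day 3.5 was the second highest of the 8 populations. At day 6.5 Dppa5a had 10555 and 13109.7 in CD144+ cells, against 14261 and 14574 in CD144- cells (-0.29, -1.01 to 0.43, adjusted p = 0.616). Dppa5a was 17.1-fold higher in CD144+ than in CD41+ cells at day 3.5 (4.10, adjusted p = 8.66e-07), the widest difference of the 9 genes between these populations.

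**Figure D2:**
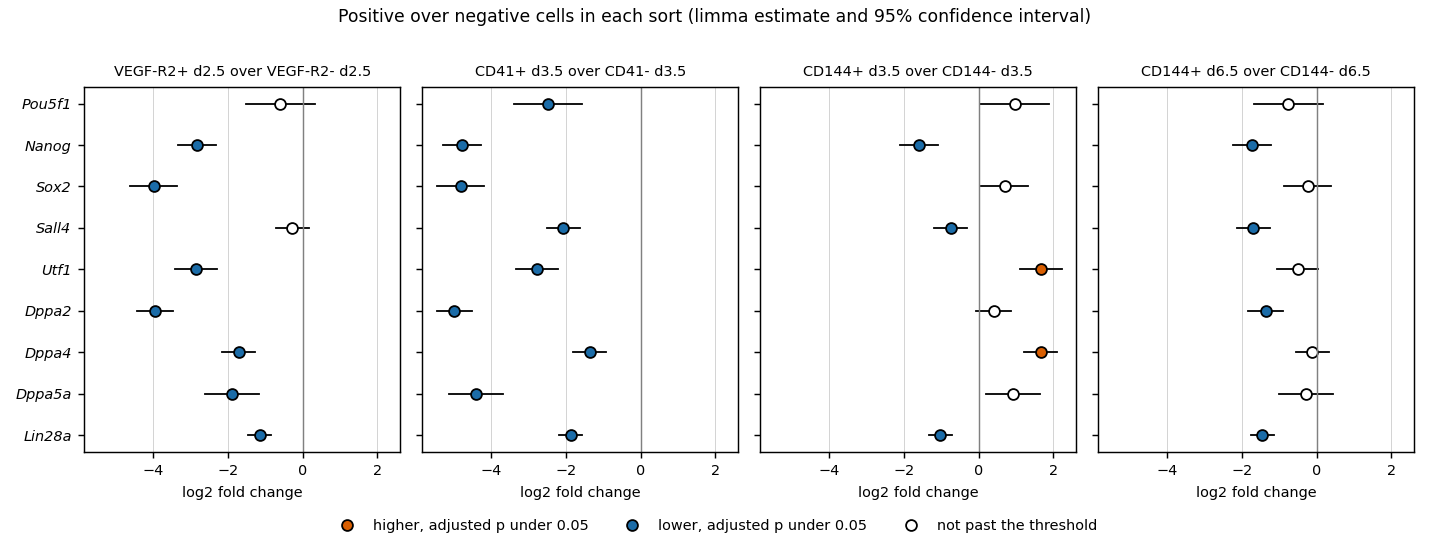
Log2 fold change of positive over negative cells (horizontal axis, point) with its 95% confidence interval (line) for the 9 genes in the 4 sorts, filled where the adjusted p was under 0.05. All 9 points lie below 0 in the CD41 sort, whereas Utf1 and Dppa4 lie above 0 in the CD144 sort at day 3.5.

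Across the sorts, 7 of the 9 genes were lower and none was higher in VEGF-R2+ than in VEGF-R2- cells, with Pou5f1 and Sall4 not called, where 13.8% of all probe sets were lower and 11.1% higher. The median log2 fold change of the 9 genes was -1.89. All 9 were lower in CD41+ than in CD41- cells, with a median of -2.78, where 15.8% of all probe sets were lower and 13.5% higher. In the CD144 sort at day 3.5, Utf1 and Dppa4 were higher and Nanog, Sall4 and Lin28a lower, with a median of 0.69, where 9.49% of all probe sets were higher and 10.5% lower. In the CD144 sort at day 6.5, Nanog, Sall4, Dppa2 and Lin28a were lower and none was higher, with a median of -0.76, where 10.1% of all probe sets were lower and 9.41% higher. The median of all probe sets lay between -0.03 and 0.11 in every comparison made. Thus the VEGF-R2 and CD41 sorts parted the set in a single direction, and the CD144 sort at day 3.5 split it. In the CD144 sort at day 6.5 all 9 log2 fold changes were below 0 as well, with 4 of them called.

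The positive populations of day 3.5 differed from each other at every member. All 9 genes were higher in CD144+ than in CD41+ cells at day 3.5, with a median log2 fold change of 2.84, where 6.06% of all probe sets were higher and 3.72% lower. Dppa4 lost its call without CD41+ replicate 1 (adjusted p = 0.0511). Set against VEGF-R2+ cells, CD41+ cells were lower for 6 genes (all but Nanog, Sox2 and Dppa4), with a median of -1.01, where 4.82% of all probe sets were lower and 5.02% higher. Dppa2 was 5.66-fold lower (-2.50, adjusted p = 1.55e-06), Pou5f1 5.78-fold (-2.53, adjusted p = 0.00100), Dppa5a 3.65-fold (-1.87, adjusted p = 0.00161) and Sall4 2.96-fold (-1.57, adjusted p = 9.51e-05). The Utf1 call (-1.01, adjusted p = 0.0209) was lost without either VEGF-R2+ array or without CD41+ replicate 1 (adjusted p 0.0844 to 0.182). CD144+ cells of day 3.5 were higher than the same VEGF-R2+ cells for 5 genes (Nanog, Sox2, Utf1, Dppa4 and Dppa5a) and lower for none, with a median of 0.94, where 4.87% of all probe sets were higher and 2.84% lower. Nanog was 8.40-fold higher (3.07, adjusted p = 1.07e-06), Dppa5a 4.70-fold (2.23, adjusted p = 0.000580) and Utf1 3.66-fold (1.87, adjusted p = 0.000284). The Dppa4 call (0.78, adjusted p = 0.0304) ended when any 1 of the 4 arrays was left out (adjusted p 0.0625 to 0.169).

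At day 6.5 CD144+ cells were still higher than VEGF-R2+ cells for Nanog (4.17-fold, 2.06, adjusted p = 1.98e-05), Sox2 and Dppa5a (2.84-fold, adjusted p = 0.00557), and lower for Sall4 (1.99-fold, -0.99, adjusted p = 0.00337) and Dppa2 (1.67-fold, -0.74, adjusted p = 0.0340). The median was -0.37, where 9.4% of all probe sets were higher and 6.1% lower. With the more variable Sall4 probe set the Sall4 difference was -0.11 (adjusted p = 0.837). Dppa2 lost this call without VEGF-R2+ replicate 1 or CD144+ replicate 1 (adjusted p up to 0.334), and Dppa5a without VEGF-R2+ replicate 1 or CD144+ replicate 2 (adjusted p up to 0.0807). Set against CD144+ cells of day 3.5, those of day 6.5 were lower for 6 genes (all but Sox2, Dppa5a and Lin28a) and higher for none, with a median of -1.01, where 2.64% of all probe sets were lower and 3.2% higher. Dppa4 was 2.23-fold lower (-1.16, adjusted p = 0.00379), and only this call stood in every fit with an array left out. With the more variable probe set the Sall4 change between these days was -0.11 (adjusted p = 0.861). The comparisons with VEGF-R2+ cells share the same 2 arrays of those cells, as do the comparisons within CD144+ cells those of day 3.5.

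**Figure D3:**
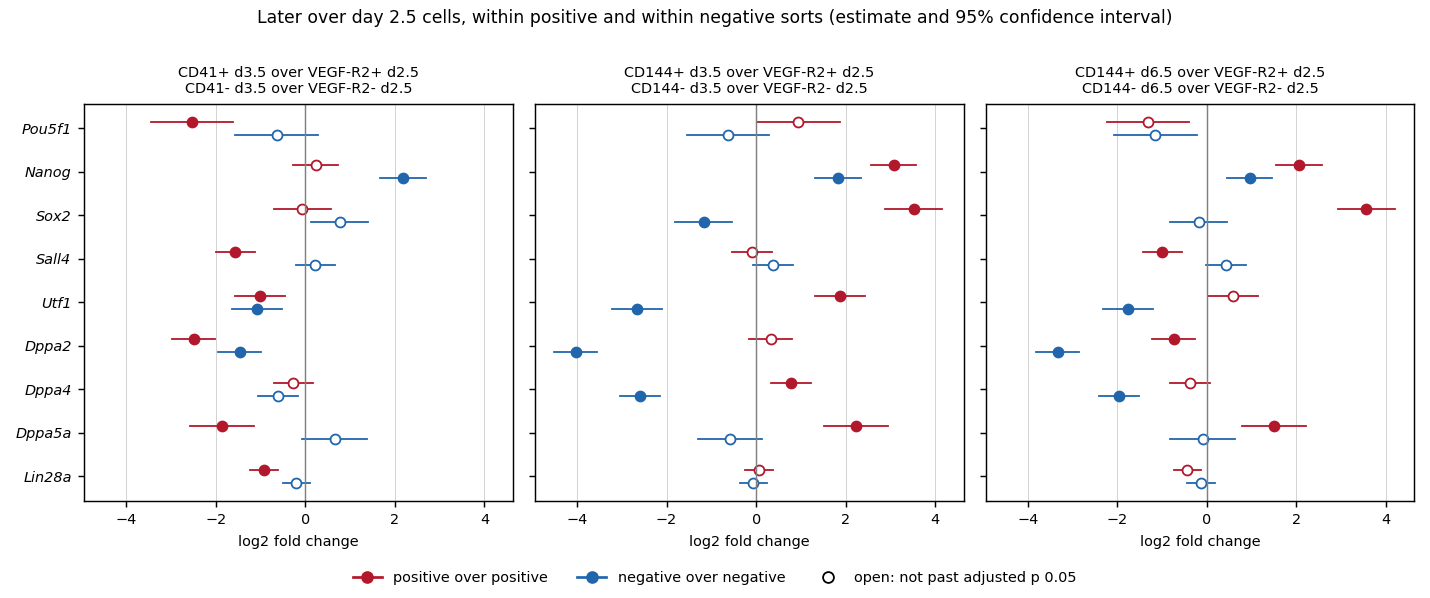
Log2 fold change over the day 2.5 cells (horizontal axis) with its 95% confidence interval for the 9 genes, in positive (red) and negative (blue) populations, filled where the adjusted p was under 0.05. In the middle panel Sox2, Nanog, Utf1, Dppa2, Dppa4 and Dppa5a lie to the right of their negative counterparts with no overlap of intervals.

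The negative populations also differed between days. Except between the CD144- cells of day 3.5 and day 6.5, sorting marker and day change together here, so that their parts cannot be told apart. CD41- cells were higher than VEGF-R2- cells for Nanog and lower for Utf1 (2.13-fold, -1.09, adjusted p = 0.0275) and Dppa2 (2.77-fold, -1.47, adjusted p = 0.00109), with a median of -0.21, where 1.57% of all probe sets were higher and 1.89% lower. The Utf1 call ended when any 1 of the 4 arrays was left out (adjusted p 0.164 to 0.199). CD144- cells of day 3.5 were higher than VEGF-R2- cells for Nanog and lower for Sox2 (2.25-fold, -1.17, adjusted p = 0.0238), Utf1 (6.33-fold, -2.66, adjusted p = 6.38e-06), Dppa2 and Dppa4, with a median of -0.62, where 3.9% of all probe sets were higher and 3.24% lower. The Sox2 call, too, ended without any 1 of the 4 arrays (adjusted p 0.112 to 0.169). CD144- cells of day 6.5 were higher than VEGF-R2- cells for Nanog and lower for Utf1 (3.37-fold, -1.75, adjusted p = 0.000356), Dppa2 (10.1-fold, -3.33, adjusted p = 8.40e-08) and Dppa4 (3.90-fold, -1.96, adjusted p = 1.37e-05), with a median of -0.18, where 5.05% of all probe sets were higher and 3.72% lower. Between CD144- cells of day 6.5 and day 3.5 no member was called by limma and the median was 0.49, where 0.557% of all probe sets were higher and 0.162% lower. Some of the other fits did call members in this comparison, as given below.

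The change in positive cells was then set against the change in negative cells over the same days, as a difference of log2 fold changes. From day 2.5 to the CD41 sort of day 3.5 7 of the 9 differences were below 0, and those of Nanog, Sall4 and Dppa5a passed the test, with a median of -1.03, where 2.4% of all probe sets were lower and 2.33% higher. Nanog, at -1.95 (SE 0.34), hardly differed between CD41+ and VEGF-R2+ cells (0.23) and was higher in CD41- than in VEGF-R2- cells (2.17). From day 2.5 to the CD144 sort of day 3.5 8 of the 9 differences were above 0, and 6 of these passed the test, with a median of 2.82, where 3.1% of all probe sets were higher and 2.2% lower. Sall4 (-0.47, adjusted p = 0.469), Pou5f1 and Lin28a did not pass, though the limma fit on only the populations compared called Pou5f1 (1.57, adjusted p = 0.00130). Sox2 had the largest difference (4.69), with 3.52 in positive and -1.17 in negative cells, followed by Utf1 (4.54), Dppa2 (4.36), Dppa4 (3.37), Dppa5a (2.82) and Nanog (1.24). For Dppa2 the log2 fold change was 0.33 in the positive cells, against -4.03 in the negative cells. From day 2.5 to the CD144 sort of day 6.5 6 differences were above 0 and 3 below. Those of Sox2 (3.75), Dppa2 (2.59), Utf1 (2.35) and Dppa4 (1.59) passed the test above 0 and that of Sall4 (-1.41) below 0, with a median of 1.59, where 2.8% of all probe sets were higher and 2.05% lower. With the more variable Sall4 probe set its difference was -0.31 (adjusted p = 0.740). These 3 differences share the arrays of day 2.5.

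The negative cells of day 3.5 were not alike. CD144- cells were lower than CD41- cells for Sox2 (3.81-fold, -1.93, SE 0.30, adjusted p = 0.00168), Utf1 (2.97-fold, -1.57, adjusted p = 0.00293), Dppa2 (5.89-fold, -2.56, adjusted p = 4.65e-06) and Dppa4 (3.93-fold, -1.98, adjusted p = 3.11e-05), and higher for none. The median was -1.23, where 0.711% of all probe sets were lower and 1.04% higher. Pou5f1 hardly differed (0.02, 95% confidence interval -0.90 to 0.94), nor did Lin28a (0.14, -0.16 to 0.45). The comparison was added after the values had been seen. Kdr was at 740 to 1001 in CD144- cells, against 53 to 95 in CD41- cells. The study's methods describe the CD41- cells as negative for VEGF-R2 too, but its list of populations names them by CD41 alone. The CD144- cells are described by CD144 alone, so that the gates of these negative cells may differ. The positive-to-negative differences of the CD41 and CD144 sorts of day 3.5 thus rest on different negative cells.

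The CD41+ duplicates lay farther apart than those of any other population for 7 of the 9 genes. Replicate 1 was below replicate 2 for all 9 genes, by 2.23 on the log2 scale for Pou5f1, 1.70 for Dppa5a, 1.54 for Sox2, 1.36 for Utf1, 1.02 for Nanog, 0.92 for Sall4 and 0.91 for Dppa4. For Lin28a the gap was 0.35, against 0.38 in CD144- cells at day 6.5, and for Dppa2 it was 0.34, against 0.73 in CD144+ cells at day 6.5. All 9 genes remained lower in CD41+ than in CD41- cells whichever of these arrays was left out. Against VEGF-R2+ cells the outcome moved with the array. Without replicate 1, Sox2 was higher in CD41+ cells (0.70, adjusted p = 0.0183) and so was Nanog (0.74, adjusted p = 0.0368), and Utf1 was no longer called (adjusted p = 0.182). Without replicate 2, Sox2 was lower (-0.84, adjusted p = 0.00342) and Dppa4 was lower as well (-0.72, adjusted p = 0.0101).

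**Figure D4:**
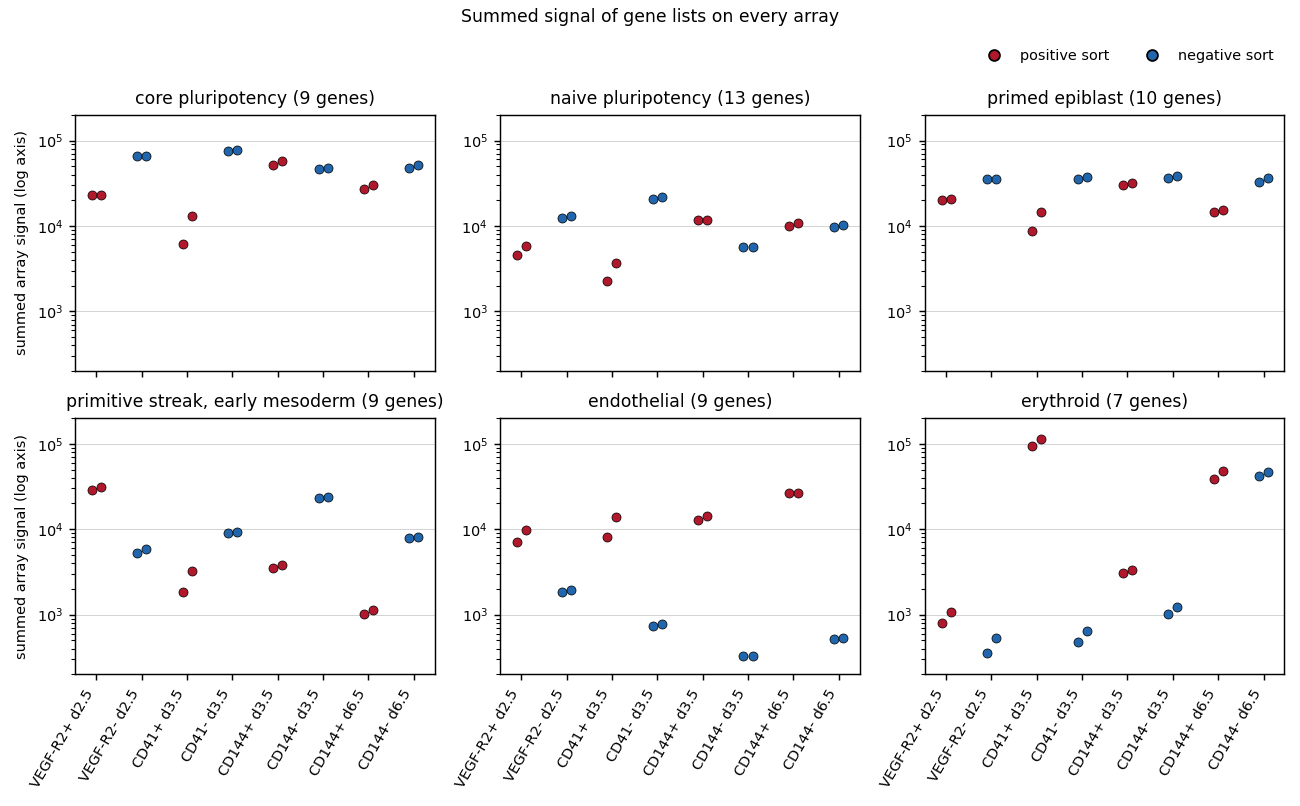
Summed array signal (log axis, the same in every panel, the brightest probe sets weighing most) of 6 gene lists in the 8 populations, 2 arrays each (points), positive populations in red and negative in blue. The naive list stood at 11596 to 11631 in CD144+ cells of day 3.5, against 5655 to 5722 in CD144- cells, and the streak list ran the other way.

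Other genes of the same cell states were followed through lists drawn up from general knowledge of mouse development. The counts that follow are read against the shares of all probe sets called, which were 13.8% lower and 11.1% higher in the VEGF-R2 sort, 15.8% and 13.5% in the CD41 sort, 10.5% and 9.49% in the CD144 sort at day 3.5, 10.1% and 9.41% in the CD144 sort at day 6.5, and 0.711% and 1.04% for CD144- against CD41- cells. Of 13 measured genes of the naive, inner cell mass-like state, 8 were lower and 1 higher in VEGF-R2+ than in VEGF-R2- cells (median log2 fold change -1.62), and 12 were lower and none higher in CD41+ than in CD41- cells (median -3.58). In the CD144 sort at day 3.5, 7 were higher and 1 lower (median 1.18), with Dppa3, a maternal and germ cell factor, at 2.30 (adjusted p = 4.88e-05), Klf4 at 1.74 (adjusted p = 0.00112) and Tbx3 lower, at -1.84 (adjusted p = 9.65e-05). The naive list as drawn up also holds Klf2, which the study lists among genes enriched in CD144+ cells. Zfp42 (Rex1), a zinc finger gene of undifferentiated ES cells, had 2523 to 2546 in CD144+ cells, against 1119 to 1151 in CD144- cells at day 3.5. In CD144- cells, set against CD41- cells of that day, 9 naive genes were lower and 1 higher (median -2.09). Of 10 measured genes of the later, primed epiblast, all were lower in CD41+ than in CD41- cells (median -2.74), and 8 were lower and none higher in CD144+ than in CD144- cells at day 6.5 (median -1.27). Fgf5, the classical primed epiblast marker, had 16 to 97 in CD144+ cells, against 1663 to 1819 in CD144- cells at day 6.5 (-5.18, SE 0.47, adjusted p = 1.01e-06). Sox2 at day 6.5 had no such difference between these cells.

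Of 13 measured partners and reported targets of Oct4 and Sox2, 9 were lower and none higher in VEGF-R2+ than in VEGF-R2- cells (median -1.14), 12 lower and none higher in CD41+ than in CD41- cells (median -2.03), 4 higher and 3 lower in CD144+ than in CD144- cells at day 3.5 (median -0.14), and 9 lower and none higher in CD144+ than in CD144- cells at day 6.5 (median -1.21). Fgf4, a growth factor gene with a known Oct4 and Sox2 enhancer, had 88 to 100 in VEGF-R2+ cells, against 1090.2 to 1136 in VEGF-R2- cells, and 14 to 20 in CD41+ cells, against 1141 to 1179 in CD41- cells (-5.69, SE 0.25, adjusted p = 1.02e-10). The Nodal inhibitor Lefty2 was lower in CD144+ cells at both days (-2.43 and -3.81, adjusted p = 1.83e-07 and 1.28e-09). On the axis of Lin28 and let-7, the let-7 target Hmga2 ran against the Lin28a probe set used above. Hmga2 was higher in VEGF-R2+ than in VEGF-R2- cells (2.25, adjusted p = 1.66e-08) and in CD41+ than in CD41- cells (2.89, adjusted p = 2.23e-10). The second Lin28a probe set was itself higher in VEGF-R2+ than in VEGF-R2- cells (mean signals 1194 and 942) and lower in CD41+ than in CD41- cells (654 and 1140). Of the 8 measured genes of that axis 3 were higher and none lower in the VEGF-R2 sort, with a median of -0.04. In the CD41 sort 2 were higher and 1 lower, close to the shares over all probe sets.

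Lists of other cells that a sort could hold moved beside these results. Of 9 measured primitive streak and early mesoderm genes, 7 were higher and none lower in VEGF-R2+ than in VEGF-R2- cells, with Mesp1, an early mesoderm factor, at 3.76 (adjusted p = 6.30e-08), and 8 were lower and none higher in CD144+ than in CD144- cells at day 3.5. The summed signal of this list was 28761 to 31600 in VEGF-R2+ cells, against 5305 to 5852 in VEGF-R2- cells, and 3470 to 3799 in CD144+ cells, against 23449 to 23600 in CD144- cells at day 3.5. It was 8914 to 9292 in CD41- cells. All 7 measured erythroid genes were higher in CD41+ than in CD41- cells, with sums of 95305 to 114333 in CD41+ cells, against 479 to 635 in CD41- cells. All 9 measured endothelial genes were higher in CD144+ than in CD144- cells at both days. They include Cdh5, the transcript of the protein on which these cells were sorted. Their sums were 12929 to 14145 in CD144+ cells, against 330.5 to 330.9 in CD144- cells at day 3.5. Fibroblast genes, which feeder cells would carry, summed to 1092 to 1215 in CD144+ cells, against 699 to 741 in CD144- cells at day 3.5, with 1 gene higher and 1 lower of 7 and a median of 0.48, and 6307 to 7572 in CD144+ cells, against 3578 to 3861 in CD144- cells at day 6.5. Of 7 measured germ cell genes, all were lower in CD41+ than in CD41- cells, and 2 were higher and 1 lower in CD144+ than in CD144- cells at day 3.5. Neuroectoderm genes are of interest because Sox2 is also a neural gene. Of 8 measured, 4 were higher and none lower in CD144+ cells at day 6.5 than in VEGF-R2+ cells (median 1.14), where 9.4% of all probe sets were higher and 6.1% lower. Against CD144- cells of that day 3 were higher and none lower. Their summed signal was 2856 to 3283 in CD144+ cells at day 6.5 and 1215 to 1275 in VEGF-R2+ cells. At day 3.5, 1 was higher and none lower in CD144+ than in VEGF-R2+ cells (median 0.04), where 4.87% of all probe sets were higher and 2.84% lower. Of 8 measured endoderm genes, 6 were higher and 2 lower in CD144+ cells at day 6.5 than in VEGF-R2+ cells (median 1.82), against the shares of 9.4% and 6.1%. The endoderm list holds Sox17, which the study also lists among genes enriched in CD144+ cells. The part of these cells in the levels of the 9 genes was not tested.

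Where a gene had more than 1 probe set, the probe set with the highest mean was used above. The second Dppa2 probe set followed the first over the 8 population means (Pearson correlation 0.98), as did a second Utf1 probe set (0.98) and a second Sall4 probe set (0.91). The second Sall4 probe set nevertheless gave no call for CD144+ cells of day 6.5 against VEGF-R2+ cells or against CD144+ cells of day 3.5. The third Utf1 probe set, with a mean signal of 50.7, ran against the first (-0.61). With the more variable Dppa2 probe set the difference between CD144+ cells at day 6.5 and VEGF-R2+ cells was 0.05 in place of -0.74 (adjusted p = 0.952).

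Among the 20024 other single-gene probe sets above the median level, the profiles most like that of Pou5f1 over the 8 population means were those of Naa35 (Pearson correlation 0.971), Kcnk1 (0.967), Zwint (0.964), Rbpms (0.961), Gng3 (0.940) and Socs2 (0.940). Those most like Sox2 were Elavl2 (0.986), Gm13261 (0.985), Phf21a (0.982), Tcl1 (0.978), Fbxo15 (0.978) and Syne2 (0.978). Tcl1 and Fbxo15 are also on the naive list. Those most like the mean over the 9 genes were Cbx7 (0.994), Fam136a (0.993), Fgf4 (0.991), Ano9 (0.988), Dip2c (0.987) and Washc4 (0.987). A high correlation here does not mean a wide change. From the lowest to the highest population mean, Naa35 ran only from 1977 to 2941, Fam136a from 128 to 189 and Zwint from 71.8 to 251. Cbx7 ran from 142 to 2050 and Fgf4 from 16.6 to 1160. Between members the correlation was lowest for Nanog and Dppa4 (0.17) and for Sall4 and Dppa4 (0.22), and 0.93 for Sox2 and Dppa5a, 0.85 for Nanog and Sox2 and 0.49 for Pou5f1 and Sox2. These are descriptions over 8 means of 2 arrays each, all scaled in the same way.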

How the data were processed

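RNA from 8 sorted populations of embryoid body cells, 2 arrays each, was measured on Affymetrix mouse expression arrays. The deposited values are linear intensity signals per probe set. The authors' methods describe dChip with invariant-set normalisation, whereas the processing notes in the labels name MAS5. The mean of each array between its 2 and 98 percentiles was 499.80 to 499.85, and the values were used as MAS5 signals scaled to a mean of 500. The genome build of the authors' annotation is not given in the sources used here.

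Groups were taken from the labels. After leaving out 64 control probe sets, log2(signal + 6) of 45037 probe sets was fitted in limma 3.58.1 (R 4.3.3) over all 16 arrays, with a trended prior and Benjamini-Hochberg adjustment within each comparison over all probe sets, at an adjusted p of 0.05. Probe sets were named from the platform annotation, which gave 34945 of them 1 symbol, 932 several and 9160 none, and only those with 1 symbol were used for genes. Each gene was read through its probe set of highest mean. Of 17 comparisons, that of CD144- with CD41- cells at day 3.5 was added after seeing the data. The genes named were the 9 members, the transcripts of the sorting markers, up to 3 called genes of largest change per list and comparison, and the 6 most alike profiles. Zfp42 was named as well, outside that rule in the CD144 sort where it is given. The members, lists and tests were chosen with earlier results of these data known. With 2 arrays a population, p-values rest on the spread between duplicates pooled over all populations. The number of arrays limits the precision. Figures were drawn with matplotlib 3.10.9 (Python 3.11.15), and the fit was tested on simulated data. Alternatives were quantile and median scaling, offsets of 1 and 32, a floor of 32, bright probe sets only, a robust prior without trend, array weights, other choices of probe set, fits on fewer populations, the replicate number as a block, and leaving out each array. The samples were treated as unpaired, because the labels do not say that a replicate number marks a shared experiment. Embryo arrays were not analysed here.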

Additional observations from a re-analysis of the deposited data

Results flagged for a closer look

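The change from day 2.5 in positive cells differed from that in negative cells, by limma's test of the difference itself, for the following results, each given as a difference of log2 fold changes, positive minus negative. For the CD41 sort these were Nanog at -1.95 (adjusted p = 0.00213), Sall4 at -1.79 (adjusted p = 0.00135) and Dppa5a at -2.52 (adjusted p = 0.00433). For the CD144 sort at day 3.5 these were Sox2 at 4.69 (adjusted p = 2.77e-06), Utf1 at 4.54 (adjusted p = 9.60e-07), Dppa2 at 4.36 (adjusted p = 2.84e-07), Dppa4 at 3.37 (adjusted p = 2.19e-06), Dppa5a at 2.82 (adjusted p = 0.00155) and Nanog at 1.24 (adjusted p = 0.0429). The Nanog call ended when any 1 of the 8 arrays was left out (adjusted p 0.0879 to 0.143). For the CD144 sort at day 6.5 these were Sox2 at 3.75 (adjusted p = 4.72e-05), Dppa2 at 2.59 (adjusted p = 0.000111), Utf1 at 2.35 (adjusted p = 0.00110), Dppa4 at 1.59 (adjusted p = 0.00424) and Sall4 at -1.41 (adjusted p = 0.00936). With the more variable probe set the Sall4 value was -0.31 (adjusted p = 0.740). Pou5f1 passed none of the 3 tests, with -1.89, 1.57 and -0.16 (adjusted p = 0.103, 0.183 and 0.936).

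The hybridization control transcripts, which no comparison used, had a geometric mean signal of 8140 over the arrays of positive cells, against 2698 over those of negative cells.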

How the results depend on the processing

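Of 86 member calls in 153 tests, 71 were kept in every fit with 1 array left out, 8 were lost in all of those fits, and 54 were kept in every fit run. Counts below are of the 9 members called. With a robust prior without trend they were 2 for CD144+ at day 6.5 against VEGF-R2+, 0 for CD144+ at day 6.5 against day 3.5, 2 for CD144- against CD41- at day 3.5, and, for the differences of changes, 0 in the CD41 sort and 3 in the CD144 sort at day 6.5. With array weights they were 5 for CD41- against VEGF-R2- and 5 for CD144- at day 6.5 against day 3.5. The mean of probe sets gave 5 for the difference in the CD41 sort and 3 in the CD144 sort at day 6.5. The probe set of highest variance gave 3 in that sort, 3 for CD144+ at day 6.5 against VEGF-R2+ and 1 for CD41- against VEGF-R2-. Fits on only the populations compared gave 8 for CD144+ against CD144- at day 3.5, 7 for CD41- and 8 for CD144- of day 3.5 against VEGF-R2-, and 1 for CD144- at day 6.5 against day 3.5. Fits on arrays of 1 sort sign gave 3 for CD144+ at day 6.5 against day 3.5, 6 for CD41- against VEGF-R2- and 5 for CD144- at day 6.5 against day 3.5.

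With 1 array left out the counts ran from 3 to 5 for CD144+ at day 6.5 against VEGF-R2+ (3 without VEGF-R2+ replicate 1), 5 to 8 for CD41+ against VEGF-R2+, 1 to 3 for CD144+ at day 6.5 against day 3.5, 0 to 1 for CD144- at day 6.5 against day 3.5 (1 without CD144- replicate 1 of day 6.5), and 3 to 7 for the difference in the CD41 sort (7 without CD41+ replicate 2). Sox2 in CD41+ against VEGF-R2+ cells was 0.70 without CD41+ replicate 1 (adjusted p = 0.0183) and -0.84 without replicate 2 (adjusted p = 0.00342). Dppa2 in CD144+ at day 6.5 against VEGF-R2+ was 0.051 with the probe set of highest variance (adjusted p = 0.952). The causes were not tested. The samples were treated as unpaired, since the labels do not say that a replicate number marks a shared experiment. Of 28 pairs of populations 0 had deviations correlated over 0.1 (-0.0468 to 0.0472), which does not settle whether experiments were shared. With the replicate block, 7 members were called in the VEGF-R2 sort, 9 in the CD41 sort, 6 in the CD144 sort at day 3.5 and 4 at day 6.5, and no call was lost.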
